A study of Mus musculus with 18 samples.

Results

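The change in DNA methylation between 2 stages of oocyte growth was examined in mouse oocytes that lack Sall4. The oocytes were 2 from early antral follicles (EAF KO) and 5 from secondary follicles (SF KO), 7 of the 18 oocytes measured. CpGs were compared where both EAF KO oocytes and at least 2 SF KO oocytes had 5 reads or more, on the 19 autosomes. This left 17716 CpGs, the member CpGs, of 629921 autosomal CpGs with 5 reads in any oocyte. The KO oocytes came from Sall4fl/fl;Zp3-Cre females, in which Cre is driven by an oocyte promoter active during growth. The 4 EAF and 7 SF wild-type oocytes (EAF WT and SF WT) came from Sall4fl/fl females without Cre, so every oocyte carried or had carried the floxed alleles. The labels list ages P12.5 and P17.5 (postnatal days) for all samples and tie neither age to a stage. Each library was 1 oocyte made by reduced representation bisulfite sequencing, which cuts DNA at CCGG sites with MspI and reads CpG-rich fragments. No animal is named, so the oocytes of a group may share an animal, a group counts as 1 sample, and no test between groups was made: values are given per oocyte, with the SD over oocytes. The deletion itself could not be checked here, since methylation tables do not show it.

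Oocytes of newborn mice enter growth with little DNA methylation. While they grow inside the follicle, DNMT3A and its partner DNMT3L add methyl groups de novo, first at some regions and later across transcribed gene bodies, at maternal imprints and at part of the mobile elements. CpG islands at active promoters mostly stay without methylation. SALL4 is a zinc-finger protein known from pluripotent cells and the germ line. The follicle stages are steps of the same growth: a secondary follicle has several layers of granulosa cells, and an early antral follicle has begun to form its fluid-filled cavity.

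Most member CpGs had neighbours at distances that recur at many places in the genome, which bears on every value that follows. Whether places with the same distances also share their sequence was not tested, apart from 2 stretches compared below. A CpG was described by the distances between it and its neighbours, taken as runs of 5 CpGs in a row. Of the 13641 member CpGs that could be classed, 10503 (77.0%) had a spacing seen at 50 places or more, and 1366 (10.01%) had a spacing seen once. Over all autosomal CpGs the shares were 14.9% and 64.4%. Chromosomes 10 to 14 held 57.0% of member CpGs, 71.7% of the recurring ones and 24.8% of those seen once, against 26.3% of all autosomal CpGs. How the aligner treated reads that match several places is not given in the sources used here, so a level at a recurring CpG may be an average over copies. The results are therefore given for all member CpGs and for CpGs with a spacing seen once. Some of the recurring spacings were found in RefSeq promoter windows (mouse assembly GRCm38.p6, 250 bases before to 50 after each gene start). The stretches below show what such sequence looks like. The capitals mark the CpGs that form the spacing.
Gm36816 window, spacing family 2: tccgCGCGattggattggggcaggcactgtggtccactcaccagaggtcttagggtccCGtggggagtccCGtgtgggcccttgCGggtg
A230004M16Rik window, spacing family 5: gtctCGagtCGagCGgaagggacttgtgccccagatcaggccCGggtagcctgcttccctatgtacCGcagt
Gm30645 window, spacing families 8 and 9: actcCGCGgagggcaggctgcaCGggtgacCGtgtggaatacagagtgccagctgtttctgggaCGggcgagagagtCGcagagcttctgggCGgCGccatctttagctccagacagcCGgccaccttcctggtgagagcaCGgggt
Gm5636 window, spacing families 8 and 9: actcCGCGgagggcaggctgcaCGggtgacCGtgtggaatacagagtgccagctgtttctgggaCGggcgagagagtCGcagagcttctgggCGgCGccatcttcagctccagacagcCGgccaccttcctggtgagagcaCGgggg
The last 2 stretches come from different chromosomes (7 and X) and share 145 of 147 bases. Family 2 occurs in 1 and family 5 in 1 of 32851 promoter windows, so the promoters hold few of the 1175 and 468 places where these spacings were seen.

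Sequencing depth differed more between the 2 EAF KO oocytes than among SF KO oocytes. Reads summed over CpGs were 942232 and 4161741 in the EAF KO oocytes and 3688890 to 6518646 in the SF KO oocytes. At member CpGs the median was 10 and 25 reads in the EAF KO oocytes, against 28 to 55 in the SF KO oocytes. SF KO replicate 1 stood apart from the other SF KO oocytes, with a mean level of 21.8% over its own autosomal CpGs, against 8.85% to 10.5% in the other 4. The main values are therefore also given without it.

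The mean level in KO oocytes was low at both stages and did not separate them. Over member CpGs the levels were 16.5% and 19.9% in the EAF KO oocytes. The SF KO oocytes had 37.8% in replicate 1 and 18.6%, 17.0%, 19.8% and 18.2% in replicates 2 to 5. The EAF KO oocytes lay just outside either end of the range of SF KO replicates 2 to 5, and replicate 1 lay far above every other KO oocyte. Taken CpG by CpG, the EAF KO mean was 18.2% and the SF KO mean 20.7%, a difference of -2.51 points. Without replicate 1 the CpGs that met the rule numbered 16302, the means were 19.1% in EAF KO and 17.6% in SF KO, and the difference was 1.51 points. The direction thus depended on a single oocyte. The same held at the 11393 CpGs read in all 7 KO oocytes, where the set of CpGs is the same for every oocyte. There the level was 21.9% ± 2.60 in EAF KO (SD, n = 2) and 24.6% ± 9.51 in SF KO (SD, n = 5). Over the 11519 CpGs read in the other 6 oocytes it was 21.9% ± 2.64 in EAF KO and 20.4% ± 1.53 in SF KO (SD, n = 2 and 4). Both differences, -2.72 and 1.52 points, were smaller than the SD of one of the groups. Wild-type oocytes at member CpGs had 25.6% to 31.3% in EAF WT and 12.7% to 31.1% in SF WT.

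**Figure D1:**
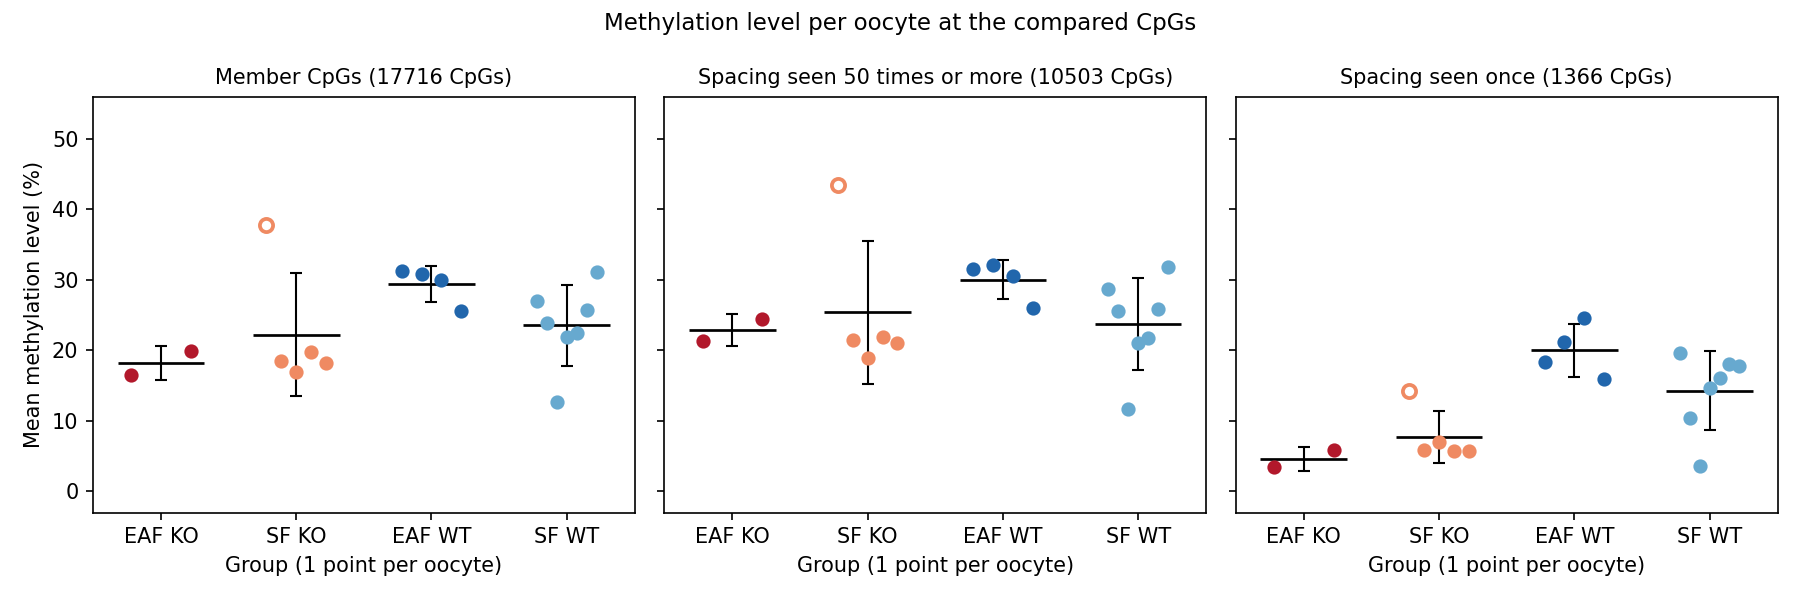
Mean methylation level of each oocyte (percent, vertical axis) over all member CpGs, over those with a recurring spacing and over those with a spacing seen once; groups run along the horizontal axis, lines are group means, error bars are SDs over oocytes, and the open circle is SF KO replicate 1. The EAF KO oocytes, at 16.5% and 19.9% in the left panel, lie beside SF KO replicates 2 to 5, and the open circle lies above all other KO oocytes in each panel.

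At CpGs with a spacing seen once, KO oocytes other than SF KO replicate 1 had little methylation at either stage. Over these 1366 CpGs the EAF KO oocytes had 3.42% and 5.85%. The SF KO oocytes had 14.2% in replicate 1 and 5.83%, 7.04%, 5.76% and 5.68% in the others. EAF KO replicate 2 lay within the range of SF KO replicates 2 to 5 and EAF KO replicate 1 below it. The difference per CpG was -2.07 points with SF KO replicate 1 and -0.11 points without it. EAF WT oocytes had 15.9% to 24.5% and SF WT oocytes 3.55% to 19.7%, each over the fewer of these CpGs that it read. At recurring CpGs the EAF KO oocytes had 21.3% and 24.5%, against 43.5%, 21.5%, 18.9%, 21.9% and 21.0% in SF KO replicates 1 to 5. Recurring CpGs were also more often at intermediate levels, between 20% and 80%. Of all member CpGs, 24.1% and 32.2% were intermediate in the EAF KO oocytes, against 8.83% and 8.71% of the CpGs those 2 oocytes read anywhere. Of member CpGs with a spacing seen once, 1.90% and 3.95% were intermediate in the EAF KO oocytes, and 3.39% to 8.42% in the SF KO oocytes.

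The level differed with CpG density, in the same order at both stages (highest with 10 to 19 CpGs, lowest with 20 or more). Where 20 or more CpGs lay within 100 bp, as in CpG islands, the mean was 0.97% in EAF KO and 2.32% in SF KO over 988 CpGs. With 10 to 19 CpGs it was 22.3% in EAF KO and 24.9% in SF KO over 8458 CpGs. With 5 to 9 it was 17.6% in EAF KO and 20.03% in SF KO over 6394 CpGs, and with 1 to 4 it was 11.1% in EAF KO and 13.8% in SF KO over 1876 CpGs. Differences of EAF KO minus SF KO ran from -2.71 to -1.34 points over the 4 classes. Without SF KO replicate 1 they were 0.73, 2.06, 1.47 and -0.96 points from the sparsest to the densest class. The island-like class alone kept its sign when replicate 1 was left out. Its levels were low in every oocyte, at 0.56% and 1.38% in EAF KO. SF KO replicates 1 to 5 had 5.22%, 1.47%, 4.41%, 1.84% and 1.39%, so EAF KO replicate 2 lay beside SF KO replicate 5.

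Few individual CpGs differed strongly between stages. Of the 17716 member CpGs, 88.7% had stage means within 20 points of each other. A CpG was called higher or lower at 50 points or more. In EAF KO, 171 CpGs (0.965%) were higher and 190 (1.07%) lower. Without SF KO replicate 1, 89.8% were within 20 points, 183 of 16302 (1.12%) were higher and 110 (0.675%) lower. Fewer were called with the further condition that no EAF KO oocyte overlapped an SF KO oocyte: 87 (0.491%) were higher and 59 (0.333%) lower. Without replicate 1 these counts were 107 (0.656%) higher and 50 (0.307%) lower. At the 11393 CpGs read in all 7 KO oocytes, where each stage mean rests on every oocyte, 17 (0.149%) were higher and 3 (0.0263%) lower. Sorted into low (20% or below), intermediate and high (80% or above), 81.8% of CpGs were in the same class at both stages, and 83.5% without replicate 1. Of 10608 CpGs that were low in SF KO, 90.8% were low in EAF KO and 0.321% were high. Of 251 that were high in SF KO, 51.8% were high in EAF KO and 12.7% were low. Without replicate 1, 57.0% of 186 high CpGs were high in EAF KO and 3.76% were low.

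**Figure D2:**
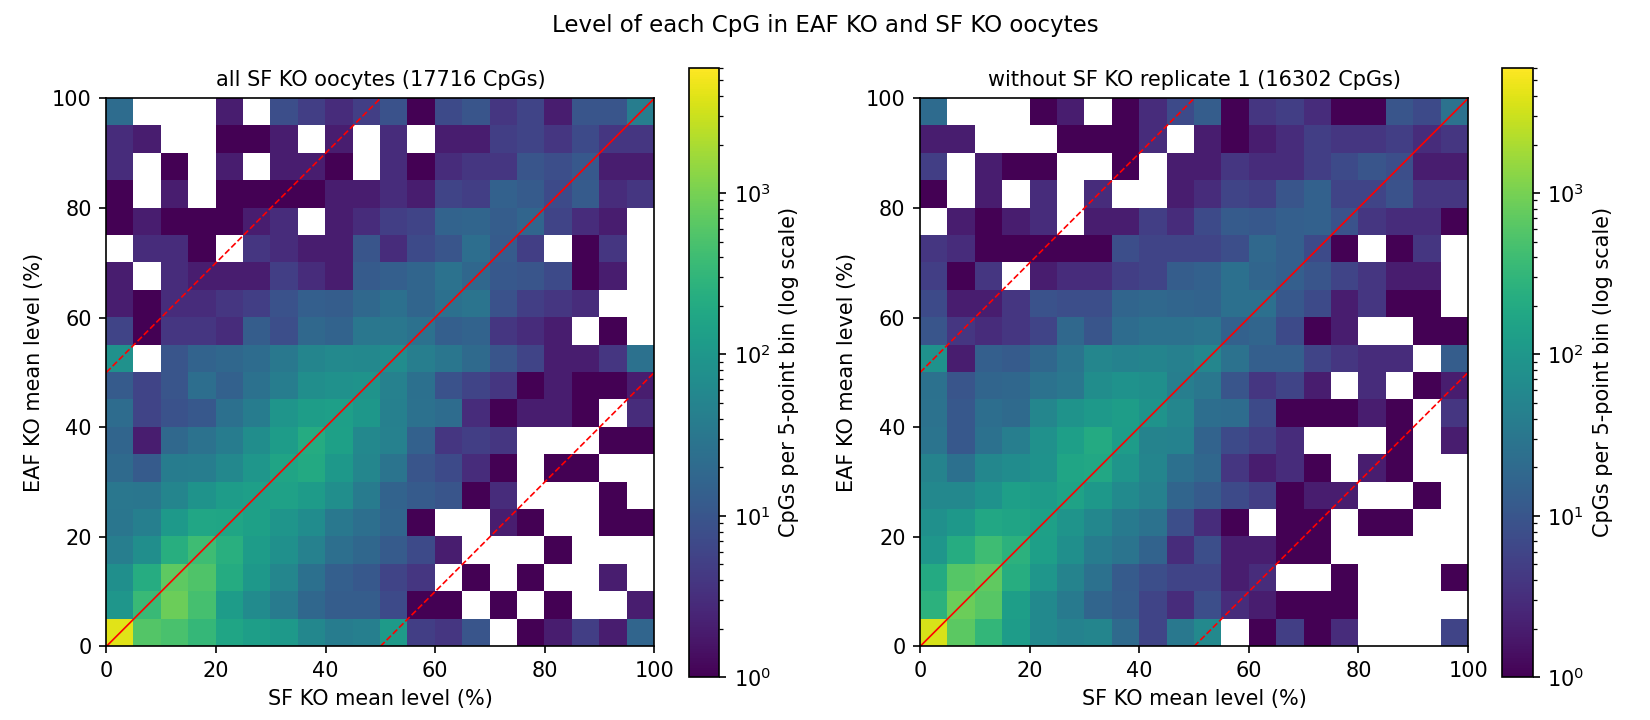
Mean level of each CpG in EAF KO oocytes (percent, vertical axis) against SF KO oocytes (percent, horizontal axis), as the number of CpGs per bin of 5 points on a log colour scale, with all SF KO oocytes and without replicate 1. The solid line marks equal levels and the dashed lines a difference of 50 points; 171 CpGs lie on or beyond the upper dashed line and 190 on or beyond the lower one in the left panel.

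The CpGs that did differ lay in many tiles and were read at lower depth than all member CpGs. The 171 higher CpGs lay in 112 separate 1 kb tiles and the 190 lower ones in 124. Of the higher ones, 91 had another higher CpG within 100 bp, and 33 had a lower CpG as near. Of the lower ones, 98 had another lower CpG and 37 a higher one. With SF KO replicate 1 left out, 106 of 183 higher and 52 of 110 lower CpGs had such a neighbour of the same direction. The share of all member CpGs with another member CpG as near is not given here. These counts therefore do not show whether the changes lay together. Median depth in the EAF KO oocytes was 8 and 15 reads at the higher and 9 and 16.5 reads at the lower CpGs, below the 10 and 25 at all member CpGs. At the 22 KO-higher CpGs also read in 2 oocytes of each wild-type stage, the means were 24.0% in EAF WT and 25.9% in SF WT. At 20 KO-lower CpGs they were 55.8% in EAF WT and 40.1% in SF WT. With replicate 1 left out of the choice, the means were 28.1% in EAF WT and 24.9% in SF WT at 30 KO-higher CpGs. At 19 KO-lower CpGs chosen in that way they were 45.8% in EAF WT and 41.3% in SF WT. Recurring spacings held 56 of the higher and 39 of the lower CpGs, which is 0.533% and 0.371% of recurring members. Spacings seen once held 29 of the higher and 42 of the lower CpGs, 2.12% and 3.07% of such members. With replicate 1 left out, 79 (0.765%) of the recurring members were higher and 39 (0.378%) lower, and 26 (2.57%) of those seen once were higher and 23 (2.27%) lower.

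Whether the pattern changed with stage was then read from pairs of single oocytes, since any 2 oocytes differ at some CpGs. Over the CpGs read in all 7, a pair was discordant at a CpG when its levels were 50 points or more apart. Pairs of an EAF KO with an SF KO oocyte were discordant at 3.24% of CpGs on average (range 1.72% to 8.35% over 10 pairs). Pairs within SF KO were discordant at 3.59% (range 1.24% to 7.03% over 10 pairs). The 1 pair within EAF KO was discordant at 2.76%. Without SF KO replicate 1 the means were 2.42% across stages (range 1.72% to 3.94%, 8 pairs) and 1.95% within SF KO (range 1.24% to 2.60%, 6 pairs). The ranges overlapped in either case, and across-stage pairs were on average less discordant than the pair within EAF KO once replicate 1 was left out. Pearson's r over the 11393 CpGs, given as a description, was 0.577 to 0.683 across stages, 0.619 to 0.702 within SF KO and 0.603 within EAF KO. The pairs share oocytes, and the CpGs share reads and may lie in copies of a sequence. Wild-type pairs at those CpGs that they shared were discordant at 3.29% across stages, 2.97% within EAF WT and 2.86% within SF WT.

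At CpGs with a spacing seen once, each pair was compared over all CpGs it shared, from 2313 to 12223 in KO pairs. Discordance was 6.57% across KO stages, against 8.36% within SF KO and 4.05% within EAF KO. Without SF KO replicate 1 it was 5.02% across stages and 5.62% within SF KO. Pearson's r was 0.196 to 0.374 across KO stages, 0.217 to 0.341 within SF KO and 0.392 within EAF KO. Wild-type pairs had r of 0.726 to 0.807 within EAF WT, 0.315 to 0.781 across WT stages and 0.323 to 0.778 within SF WT. The r of every KO pair, within or across stages, was thus below that of every EAF WT pair, while SF WT pairs reached into the KO range. Discordance went the other way. Wild-type pairs were discordant at 9.53% across stages, 6.72% within EAF WT and 9.96% within SF WT, each above the KO mean of the same kind.

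The methylated CpGs themselves were followed from oocyte to oocyte, only among CpGs with a spacing seen once. Of CpGs at 80% or above in an SF KO oocyte and read in an EAF KO oocyte, 25.2% on average were at 80% or above there too (range 10.3% to 45.0% over 10 pairs). Between SF KO oocytes the share was 27.4% (range 10.6% to 44.2% over 20 ordered pairs). Without SF KO replicate 1 the shares were 28.1% from SF KO to EAF KO and 27.5% between SF KO oocytes. From 1 EAF KO oocyte to the other they were 31.3% and 49.3%, on 115 and 73 CpGs. The averages across stages and within SF KO were thus close, but the 2 EAF KO oocytes differed. From SF KO replicates 2 to 5 the shares were 30.8%, 14.3%, 14.5% and 20.7% in EAF KO replicate 1, the shallower library. In EAF KO replicate 2 they were 45.0%, 28.5%, 36.4% and 34.7%. Pairs among SF KO replicates 2 to 5 ranged from 18.5% to 36.4%. In the wild type 78.3% of CpGs at 80% or above in an SF oocyte were found again in an EAF oocyte (range 56.5% to 88.0% over 28 pairs). The share was 78.8% between EAF WT oocytes and 58.4% between SF WT oocytes. All 10 KO values across stages lay below all 28 wild-type values across stages, though each pair had its own set of shared CpGs. New high levels were rare in KO: of CpGs at 20% or below in an SF KO oocyte, 2.19% were at 80% or above in an EAF KO oocyte, against 3.72% in another SF KO oocyte. These shares were 2.22% across stages and 2.55% within SF KO when replicate 1 was left out. In the wild type 7.56% of CpGs that were low in an SF oocyte were high in an EAF oocyte (range 3.49% to 11.1%). The share was 3.42% between EAF WT oocytes and 5.21% between SF WT oocytes (range 0.88% to 14.9%).

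**Figure D3:**
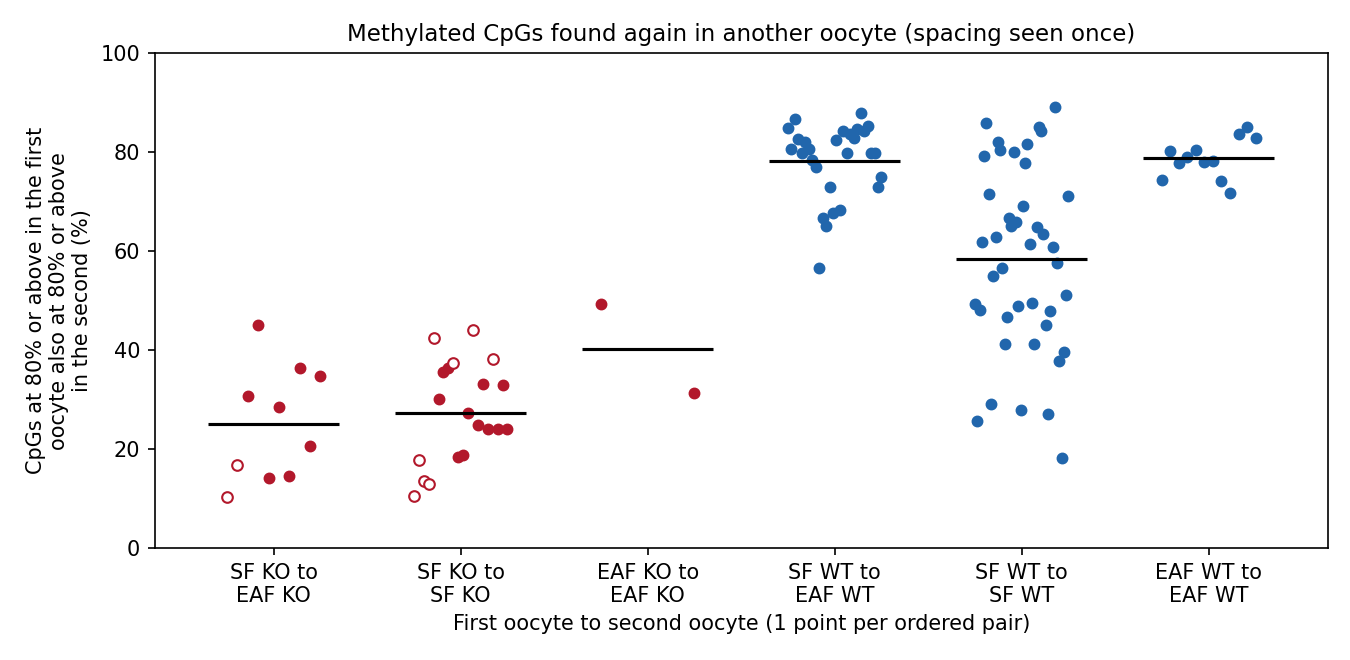
Share of CpGs with a spacing seen once, at 80% or above in a first oocyte, that were at 80% or above in a second (percent, vertical axis), for each kind of ordered oocyte pair (horizontal axis); each point is a pair, lines are means and open circles are pairs with SF KO replicate 1. The KO pairs lie between 10.3% and 49.3%, and the wild-type pairs from SF to EAF between 56.5% and 88.0%.

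CpGs were next sorted by wild-type oocytes alone, so that the KO values are independent of the sorting. Those that gained 50 points or more in the wild type lacked such a gain in KO. With a spacing seen once there were 185 such CpGs of 2498 (7.41%), at 81.2% in EAF WT and 15.9% in SF WT, values that served to choose them. The EAF KO oocytes had 0% over the 20 that replicate 1 read and 10.5% over the 57 that replicate 2 read. The SF KO oocytes had 25.4%, 4.66%, 17.3%, 11.6% and 7.86%, each over 42 to 80 CpGs. The EAF KO mean was 5.24% ± 7.40 (SD, n = 2) and the SF KO mean 13.4% ± 8.21 (SD, n = 5), or 10.3% ± 5.41 without replicate 1 (SD, n = 4). The EAF WT range, 75.2% to 84.8%, is high because of the choice, so KO and wild-type levels cannot be compared at these CpGs. Among member CpGs 63 of 11946 (0.527%) had gained in the wild type, at 71.5% in EAF WT and 12.6% in SF WT. There the EAF KO oocytes had 20.2% and 29.5%, and the SF KO oocytes 48.3%, 21.8%, 18.5%, 29.6% and 26.4%. The KO difference was -4.10 points, and 0.74 points over the same CpGs without SF KO replicate 1.

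CpGs at 80% or above in the wild type at both stages were partly methylated in KO. Over 86 such CpGs with a spacing seen once, the wild-type means were 98.3% in EAF WT and 98.3% in SF WT, values that served to choose them. Levels were 33.0% and 40.5% in the EAF KO oocytes. The SF KO oocytes had 31.0%, 13.2%, 36.5%, 14.5% and 36.6%. The stage means, 36.8% ± 5.32 in EAF KO (SD, n = 2) and 26.4% ± 11.7 in SF KO (SD, n = 5), differed by 10.4 points, less than the SD within SF KO. With replicate 1 left out SF KO had 25.2% ± 13.1 (SD, n = 4) and the difference was 11.6 points. Each oocyte read only 18 to 34 of these CpGs. Among member CpGs 147 were high at both wild-type stages, and KO oocytes had 68.6% and 67.9% there in EAF KO and 67.5% to 88.6% in SF KO, or 67.5% to 77.4% with replicate 1 left out. At CpGs that were at 20% or below in both wild-type stages, KO oocytes were low too. Over 1972 of them with a spacing seen once, the mean was 2.49% ± 1.48 in EAF KO (SD, n = 2) and 3.17% ± 2.19 in SF KO (SD, n = 5). The wild-type means, 0.70% in EAF WT and 0.53% in SF WT, served to choose these CpGs, so KO and wild-type levels cannot be compared here. The KO difference was -0.68 points, and 0.15 points with replicate 1 left out, when SF KO had 2.33% ± 1.33 (SD, n = 4). Those that lost 50 points or more in the wild type numbered 38 of 2498 (1.52%) with a spacing seen once. Their means were 30.7% ± 8.13 in EAF KO (SD, n = 2) and 29.3% ± 17.0 in SF KO (SD, n = 5), a difference of 1.46 points. With replicate 1 left out SF KO had 22.4% ± 8.39 (SD, n = 4) and the difference was 8.35 points. Among member CpGs 23 of 11946 (0.193%) had lost as much in the wild type, with means of 36.8% ± 9.3 in EAF KO and 33.2% ± 14.9 (SD, n = 2 and 5) in SF KO, a difference of 3.51 points. With replicate 1 left out SF KO had 27.3% ± 7.66 there (SD, n = 4) and the difference was 9.46 points.

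**Figure D4:**
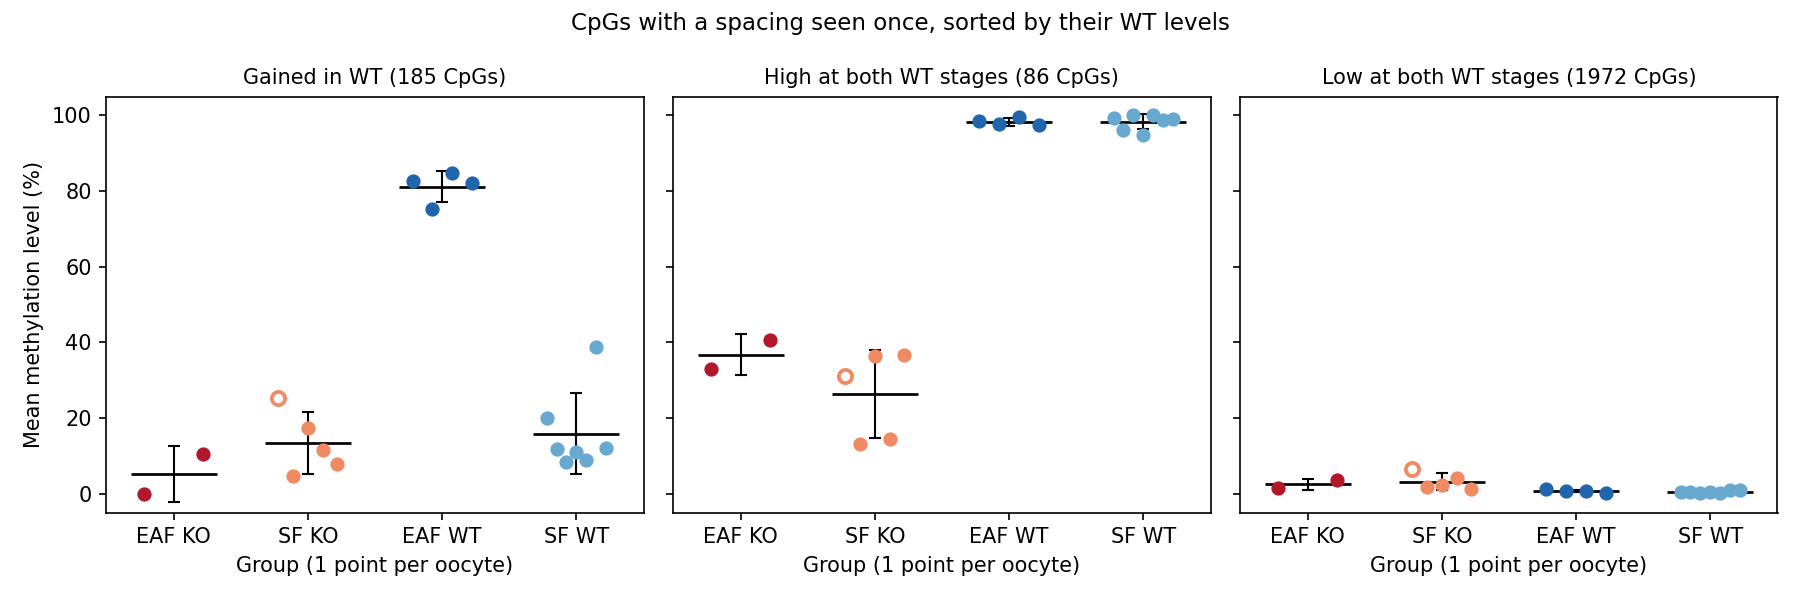
Mean level of each oocyte (percent, vertical axis) by group (horizontal axis) at CpGs with a spacing seen once that gained methylation in the wild type, were high at both wild-type stages or were low at both; lines are group means, error bars SDs over oocytes, and the open circle SF KO replicate 1. The WT points reflect the sorting, so the heights of KO and WT points cannot be compared. At gained CpGs the EAF KO oocytes lie at 0% and 10.5%.

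The commonest spacings allowed the stages to be compared over many places with the same distances between CpGs. The 10 most frequent held 6760 member CpGs (38.2%). Of these, 7 had at least 379 CpGs in every KO oocyte and are described here, each oocyte over its own CpGs. Families 3 and 4, which share their first 3 distances and may be forms of the same sequence, had the lowest levels. In family 3 the EAF KO oocytes had 12.0% and 17.49%, and the SF KO oocytes 37.1%, 15.0%, 11.3%, 18.3% and 13.1%. Both EAF KO values lay inside the range of SF KO replicates 2 to 5. In family 4 the EAF KO oocytes had 6.3% and 13.2%, and SF KO replicates 2 to 5 had 8.7% to 12.9%. Families 8 and 9, both found in the Gm30645 and Gm5636 stretches shown above, had the highest levels. In family 8 the EAF KO oocytes had 35.8% and 51.3%, and SF KO replicates 2 to 5 had 31.6% to 44.0%. In family 9 they had 36.1% and 40.5%, against 24.9% to 45.6%. In family 2, the spacing of the Gm36816 stretch, both EAF KO oocytes, at 28.5% and 29.8%, lay above SF KO replicates 2 to 5, at 20.6% to 27.2%.

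The 7 families stood in the same order of mean level in EAF KO and in SF KO, with or without replicate 1, from family 4 to family 8. With all oocytes, EAF KO minus SF KO was negative in each of the 7, from -6.83 to -1.20 points. Without SF KO replicate 1 it was positive in 6, from 0.32 to 4.36 points, and -1.44 points in family 4. Over the same families EAF WT minus SF WT was 0.48 to 11.1 points. In family 8 the wild-type means were 62.2% ± 7.63 in EAF WT (SD, n = 4) and 51.2% ± 8.19 in SF WT (SD, n = 7), a difference of 11.1 points. The KO difference without replicate 1 was 3.47 points in that family. In family 1 it was 3.29 points in KO and 2.14 points in the wild type, and in family 3 it was 0.32 points in KO and 0.48 points in the wild type.

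**Figure D5:**
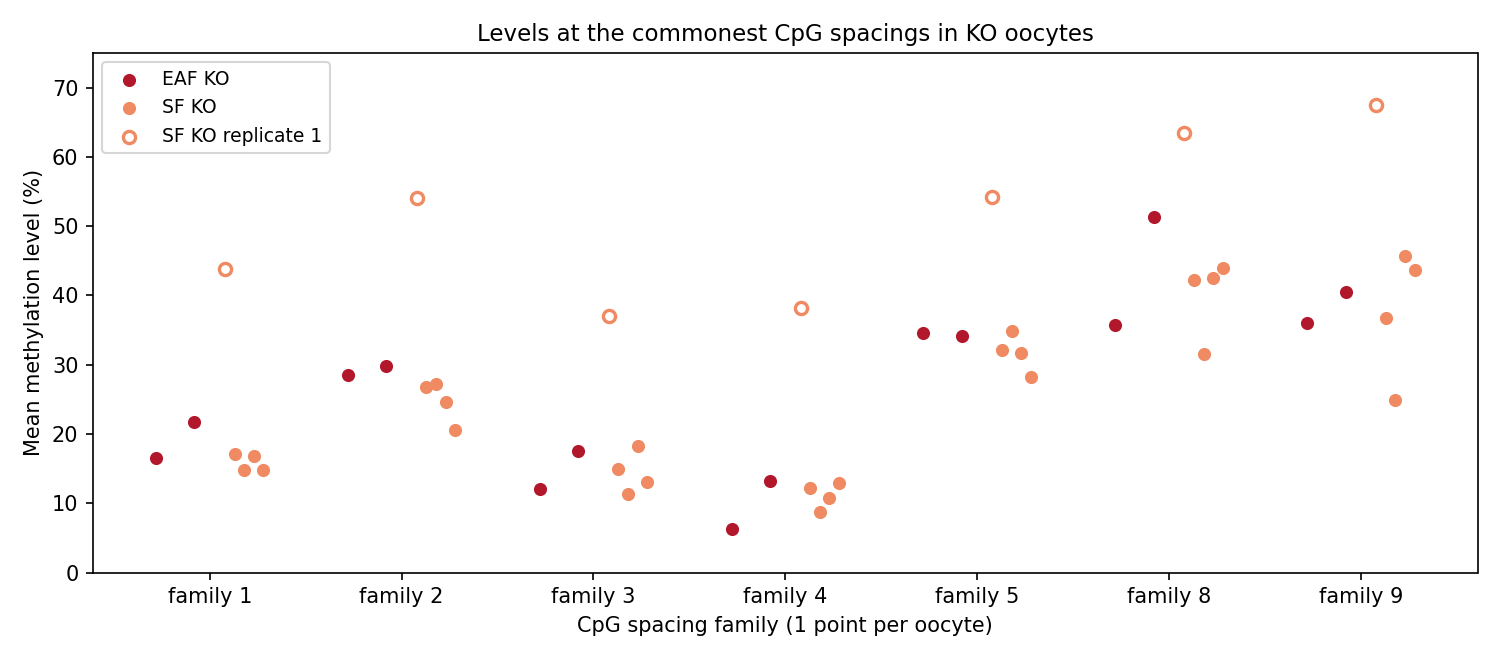
Mean level of each KO oocyte (percent, vertical axis) over the CpGs of the 7 well-read spacing families (horizontal axis), with EAF KO oocytes on the left and SF KO oocytes on the right of each family; the open circle is SF KO replicate 1. The EAF KO points, from 6.3% in family 4 to 51.3% in family 8, share the height of the filled SF KO points of their family more closely than that of the open circle, which lies above all other points.

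Regions of 1 kb gave the same account at a coarser scale. Over 2343 tiles with 3 CpGs or more in both EAF KO oocytes and in at least 2 SF KO oocytes, the mean level was 15.6% in EAF KO and 18.3% in SF KO. The difference was -2.74 points, and 1.17 points over 2113 tiles without SF KO replicate 1. At 30 points or more, 36 tiles (1.54%) were higher in EAF KO and 53 (2.26%) lower. Without replicate 1, 42 (1.99%) were higher and 15 (0.71%) lower. Of 1889 tiles read in at least 3 SF KO oocytes, both EAF KO oocytes lay above every SF KO oocyte in 36 (1.91%) and below in 71 (3.76%). Without replicate 1 these counts were 140 (7.41%) above and 79 (4.18%) below. The tiles named next are the 8 of largest rise and the 8 of largest fall among the non-overlapping ones, on build mm9. They were chosen by these values, which are thus a description.

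The largest rise was at chr12:11664001-11665000. The EAF KO oocytes had 66.7% on 6 CpGs and 75% on 8 CpGs, against 40.9%, 6.73%, 8.96% and 2.50% in SF KO replicates 1, 2, 3 and 5. EAF WT oocytes were as far apart from each other here, at 63.8%, 0% and 11.9%. At chr4:60631001-60632000 the EAF KO oocytes had 100% and 78.6%, against 69.6%, 14.3%, 33.0% and 21.3% in SF KO replicates 1 to 4. This tile was low in the wild type, at 0% in the 1 EAF WT oocyte that read it and 0% to 24.1% in 3 SF WT oocytes. At chr16:15442001-15443000 the EAF KO oocytes had 11.1% and 71.4%, against 0%, 0% and 6.00% in SF KO replicates 1, 2 and 5. The other 5 rises were at chr17:77700001-77701000, chr3:93015001-93016000, chr3:28765001-28766000, chr1:121641001-121642000 and chr5:26706001-26707000, with differences of 34.2 to 39.6 points. The tiles at chr3:28765001-28766000 and chr1:121641001-121642000 both hold a spacing seen at 236 places and had similar values. SF KO replicates 1 to 5 had 12.8%, 20.1%, 14.3%, 2.02% and 36.4% in the chromosome 3 tile, and 10.8%, 17.2%, 14.5%, 2.30% and 28.2% in the chromosome 1 tile.

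The largest fall was at chr9:79750001-79751000. The EAF KO oocytes had 3.46% and 39.3%, against 77.9%, 82.3% and 85.7% in SF KO replicates 1, 2 and 5. The wild type was on the same side, at 18.4% to 40.6% in 3 EAF WT oocytes and 91.4% in the 1 SF WT oocyte. The nearby chr9:79748001-79749000 was also lower in EAF KO, at 0% and 6.74%, against 30.4%, 58.4%, 17.1% and 88.2% in SF KO replicates 1, 2, 3 and 5. At chr3:29618001-29619000 both EAF KO oocytes had 0%, against 57.4%, 28.5% and 67.8% in SF KO replicates 1, 2 and 4. Both had 0% at chr6:135237001-135238000 as well, against 50%, 62.7% and 16.7% in SF KO replicates 1, 2 and 5. The other falls were at chr1:25647001-25648000, chr1:5341001-5342000, chr16:73553001-73554000 and a tile on chromosome 18, with differences of -49.6 to -40.4 points. The named tiles rested on 3 to 25 CpGs per oocyte, and the commonest spacing in each was seen at 15 to 1298 places.

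Promoters that could be placed were at or near 0% at both stages. No mm9 annotation was at hand, so RefSeq promoter windows were placed where the distances between at least 9 of their CpGs matched the CpG positions of the files at exactly 1 position. This placed 5549 of 14504 windows with enough CpGs. The rule favours windows rich in CpGs, so the placed windows do not stand for all promoters. A search on wrong chromosomes, made to gauge chance matches, placed 16. Of the placed windows, 90 of 84 genes had values in both KO stages, and 53 of these were at 0% in every KO oocyte. The mean was 0.52% in EAF KO and 0.92% in SF KO, and no window had a stage mean of 20% or more. Where wild-type oocytes read these windows, most of their means were at or near 0% too. Windows at 0% in both EAF KO oocytes numbered 75, and those at 0% in all SF KO oocytes 62. At 0% in every KO oocyte that read them were Ctsd, which codes for the lysosomal protease cathepsin D, Mybl2, a transcription factor of the cell cycle, and Npat, which drives histone gene transcription. Foxa2, a transcription factor of endoderm, had 0% in EAF KO and 0.14% in SF KO. These and the following genes were picked after their values were seen.

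Some promoter windows had values above 0%. At 1600020E01Rik the level was 0% and 14.3% in the EAF KO oocytes and 0% in the 3 SF KO oocytes that read it. Smad5, a transducer of BMP signals, had 0% on 8 CpGs and 11.1% on 9 CpGs in the EAF KO oocytes. The 4 SF KO oocytes that read it had 0%, and the SF WT mean was 3.70%. At 4 other windows both EAF KO oocytes had 0%. The SF KO mean was 5.56% at Lingo3, 5.03% at Tgds, 4.99% at Acss1 and 4.54% at Tubgcp3, a gamma-tubulin complex subunit. Each of these had 2 or 3 SF KO oocytes, of which at least 1 was at 0%. Atp9a, a phospholipid flippase, had 6.35% in EAF KO and 7.21% in SF KO. The Gm35240 window was read in all 7 KO oocytes. The EAF KO oocytes had 10.6% and 13.3% there, against 9.20%, 16.3%, 9.45%, 8.78% and 15.3% in SF KO replicates 1 to 5. The means were 12.0% in EAF KO and 11.8% in SF KO. SF KO replicate 1 was not above the other oocytes here, but its value covered 11 CpGs and theirs 4 or 5. These values therefore do not show whether it stood apart at the same CpGs. The 250 bases before the start are shown because this window alone covers every KO oocyte. The capitals mark CpGs seen in the libraries.
Gm35240 window: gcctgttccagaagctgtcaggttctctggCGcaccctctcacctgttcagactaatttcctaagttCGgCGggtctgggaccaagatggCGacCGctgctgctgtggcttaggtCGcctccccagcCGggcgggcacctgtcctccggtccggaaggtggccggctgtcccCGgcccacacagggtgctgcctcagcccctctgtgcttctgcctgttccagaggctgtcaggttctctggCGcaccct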

How the data were processed

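Single-oocyte reduced representation bisulfite libraries were examined. Per the submitters' processing notes, reads were aligned with BSMAP 2.89 to build mm9. Per the file headers, the deposited tables hold per CpG a total read count and a methylated read count, both strands together. The deposited ratio is a fraction, methylated over total count. What the authors filtered is not stated, and the spike-in control for conversion was not analysed here. Incomplete conversion would raise levels.

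Levels were computed as percent at CpGs with at least 5 reads. A read counts at each CpG it spans, and PCR copies are not separate molecules, so precision is lower than the totals imply. The commands were tested on simulated counts (Python 3.11.15, numpy 2.4.6, pandas 2.3.3). The members and lists were chosen with earlier results of these data known. Spacing classes and families, the following of methylated CpGs and the placing of promoters were added after the data were seen. Planned gene lists were not used, since no mm9 annotation was at hand. Alternatives covered depth, coverage, call size, tile size, thinning and each oocyte left out. A promoter result is not reported here.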

Additional observations from a re-analysis of the deposited data

Results flagged for a closer look

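SF KO replicate 1 stood apart from the other 4 SF KO oocytes in 15 of 21 sets of CpGs. In each of these its gap to the next oocyte exceeded Dixon's critical value for 5 samples, which chance does for about 1 in 20 groups. The sets share CpGs, and all 15 concern the same oocyte. Its level was 37.8% over member CpGs and 41.5% over CpGs read in all 7 KO oocytes. It was 14.2% at CpGs with a spacing seen once, 29.1% with a spacing seen 2 to 49 times, 43.5% with a spacing seen 50 times or more and 28.8% at CpGs whose spacing was not classed. By density it was 27.2% with 1 to 4 CpGs within 100 bp, 36.9% with 5 to 9 and 43.3% with 10 to 19. It was 24.8% at member CpGs that were low at both wild-type stages. In the spacing families it was 43.8% in family 1, 54.1% in family 2, 37.1% in family 3, 38.1% in family 4 and 54.2% in family 5. The value serves only to mark an oocyte that stands apart, since oocytes of a group may share an animal. The EAF KO group of 2 oocytes is too small for this comparison.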

How the results depend on the processing

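Leaving out SF KO replicate 1 turned most stage differences round. Leaving out each KO oocyte in turn gave -4.003 to 1.51 points over member CpGs, -4.53 to 1.52 over CpGs read in all 7 oocytes and -4.50 to 1.17 over tiles. By density the ranges were -5.28 to 0.73, -4.74 to 2.06, -3.96 to 1.47 and -2.04 to -0.37 points. At CpGs sorted by the wild type they were -6.38 to 1.48 (gained), -8.52 to -4.11 (high), -4.80 to 0.28 (low) and -8.05 to 10.7 (lost). The excess of discordant CpGs across stages, -0.35 points with all oocytes, ran from -1.27 to 0.50. Its sign also turned without EAF KO replicate 2 (0.29) and with 1 read per CpG (0.86), and it was -3.38 with discordance set at 30 points. The excess of methylated CpGs found again across stages was -2.19 points, and 0.60 without SF KO replicate 1. Without both SF KO replicate 1 and EAF KO replicate 1 the member difference was 3.35 points. Gained and lost CpGs were unstable, with the sign turned in 3 of 11 alternatives for gained and 6 of 11 for lost CpGs. The gained difference was -25.8 with 10 reads and 6.41 with wild-type classes on 3 oocytes. The lost one was -3.13 with 1 read, -0.49 with 10 reads, -11.1 with the stricter classes, and -4.03 and -4.86 without SF KO replicates 2 and 5. The high class gave 10.4 over CpGs with a spacing seen once.

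Counts of called CpGs followed the coverage asked for. The number of CpGs or tiles tested also changed with depth, coverage and the oocytes used, so these counts do not compare as shares. In the main setting 171 (0.965%) of 17716 CpGs were higher and 190 (1.07%) lower. Higher and lower CpGs numbered 1884 and 1668 with 1 read, and 33 and 61 with 10 reads. They numbered 78 and 31 with 3 SF KO oocytes, and 17 (0.149%) and 3 (0.0263%) of 11393 with all 5. Of the 17716 member CpGs, 423 and 606 were called at 30 points, 30 and 28 at 80 points, and 87 (0.491%) and 59 (0.333%) without overlap. Of the 1366 with a spacing seen once, 29 (2.12%) were higher and 42 (3.07%) lower. With an oocyte left out they ranged from 127 to 2561 higher and from 110 to 1980 lower. The largest counts came without EAF KO replicate 1, when 65405 CpGs met the rule, against 17716 with all oocytes. Tiles ranged from 26 to 377 higher and from 15 to 309 lower. Higher and lower tiles were 209 and 252 with 1 read, 9 and 18 with 10 reads, and 81 and 100 with 1 CpG per tile. With all 5 SF KO oocytes the densest class differed by -4.06 points. Gained and lost CpGs aside, the other settings kept each direction and its size within the spread between oocytes. Thinning of each library to 909314 reads was among them.

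EAF KO and SF KO share only replicate numbers 1 and 2, which no label ties to an animal. Deviations of same-numbered oocytes from their group mean correlated at -0.04 and -0.08 over CpGs read in all 7. With 2 EAF KO oocytes the deviations of 1 mirror those of the other, so these correlations cannot decide on pairing. The numbers were not taken as pairs. With a replicate block the differences were -8.38 points over member CpGs, -9.33 over CpGs read in all 7 and -8.22 over tiles, each resting on SF KO replicate 1.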
